A study of Rattus norvegicus with 20 samples.

Results

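The enzymes described here reduce aldehydes and ketones with NADPH and were measured in the nasal lining of the rat: the aldo-keto reductases Akr1b8, Akr1b1, Akr1a1, Akr7a2 and Akr7a3, and the short-chain carbonyl reductase Cbr1. They were chosen by name: every probe set whose annotation gave 1 symbol, and that symbol 1 of these 6 genes. This gave 7 of the 31042 probe sets, since Akr1b1 has 2, and 6 of 14217 named genes. They are 1370902_at for Akr1b8, 1367734_at (brighter) and 1396360_at (dimmer) for Akr1b1, 1398753_at for Akr1a1, 1367843_at for Akr7a2, 1368121_at for Akr7a3 and 1368037_at for Cbr1. RNA came from the olfactory and the respiratory epithelium of the nose of untreated Sprague-Dawley rats, an outbred stock, aged 11, 13 or 14 weeks, with no genetic change named in the labels. Males gave 6 olfactory and 6 respiratory arrays and females 2 and 6, from 13 rats by the numbers in the labels, and 7 of these rats (5 male and 2 female) gave both tissues. All 20 samples were hybridised singly, and the study asked for the normal expression of both tissues in both sexes. Over all probe sets, male respiratory 7 and female respiratory 8 stood apart from the other respiratory arrays, at 97.6 and 113 on the second principal component (15.8% of the variance) against -32.6 to 5.44. Results that change without this pair are given both ways.

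Aldo-keto reductases fold as a barrel and carry hydride from NADPH to the carbonyl group of a sugar, a lipid aldehyde, a steroid or a foreign compound, which turns it into an alcohol that can be conjugated and cleared. Short-chain carbonyl reductases do the same chemistry with another fold and favour ketones and quinones. The epithelium of the nose meets inhaled aldehydes and solvents first, and reductases and dehydrogenases are among the enzymes that act on them there.

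By the RefSeq gene table of build GRCr8, Akr1b1 and Akr1b8 are neighbours on chromosome 4, followed by Akr1b10 and Akr1b7. Akr7a2 and Akr7a3 are neighbours on chromosome 5, where Akr1a1 also lies, and Cbr1 on chromosome 11 is followed by Cbr1l1 and Cbr1l2. The table names 5 pseudogenes for Akr1b8 and 5 for Akr1b1. How far probes of one gene also bind RNA of these relatives was not tested, so the signals of Akr1b1, Akr1b8, the Akr7a pair and Cbr1 are uncertain to that extent. Promoter sequences were in the RefSeq table for 5 of the 6 genes, all but Akr1b1. Those of Akr1b8, Akr7a3 and Cbr1 are shown because these 3 genes differed between the tissues, the first pair in one direction and Cbr1 in the other. Each holds 300 bases across the annotated start, written 5′ to 3′ on the gene's strand, at chr4:63964171-63964470 (+) for Akr1b8, chr5:156876471-156876770 (+) for Akr7a3 and chr11:46346155-46346454 (+) for Cbr1. Capitals mark GCGTG on either strand, the core of the xenobiotic response element.
Akr1b8: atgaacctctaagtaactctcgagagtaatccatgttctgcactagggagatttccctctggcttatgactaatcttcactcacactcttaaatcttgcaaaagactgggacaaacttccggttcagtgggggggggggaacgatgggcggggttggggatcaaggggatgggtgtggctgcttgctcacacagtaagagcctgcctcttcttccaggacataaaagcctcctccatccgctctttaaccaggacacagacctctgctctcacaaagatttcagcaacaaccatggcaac
Akr7a3: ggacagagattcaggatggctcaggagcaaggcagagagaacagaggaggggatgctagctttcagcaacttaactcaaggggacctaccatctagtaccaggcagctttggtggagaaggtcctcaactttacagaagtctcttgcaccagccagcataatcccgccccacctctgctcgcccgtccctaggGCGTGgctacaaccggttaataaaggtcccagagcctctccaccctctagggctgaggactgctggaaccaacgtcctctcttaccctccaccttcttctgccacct
Cbr1: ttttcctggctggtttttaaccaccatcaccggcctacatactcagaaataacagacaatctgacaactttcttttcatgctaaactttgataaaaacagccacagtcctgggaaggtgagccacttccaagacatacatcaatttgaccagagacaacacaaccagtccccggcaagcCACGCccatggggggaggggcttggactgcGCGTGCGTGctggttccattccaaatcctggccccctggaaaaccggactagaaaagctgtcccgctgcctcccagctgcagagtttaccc
GCGTG was found 3 times in the Cbr1 window (a pair of these matches share a base), once in that of Akr7a3 and not in that of Akr1b8. The windows of Akr7a2 and Akr1a1, not shown, held 2 and 0. Of 33469 rat promoters of this length, 29.7% hold it. The core of the antioxidant response element, TGACNNNGC on either strand, was in none of the 5 windows and in 12.1% of all promoters. These are matches of letters in a short window and say nothing of which factors bind there.

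Akr1b8, a reductase of lipid and other aldehydes first known as a gene induced by fibroblast growth factor in rodents, showed the widest difference of the 6 genes. Signals are the linear values per probe set as deposited. On the 6 male olfactory arrays they ran from 143 to 576 with a median of 333, and on the 6 male respiratory arrays from 7707 to 15392.5 with a median of 14305. The groups did not overlap, and the lowest respiratory array lay above the highest olfactory array by more than either group's range on the log2 scale. The 2 female olfactory arrays read 582 and 821, and the 6 female respiratory arrays ran from 7119 to 17312 with a median of 12708. Again the groups did not overlap, as for 30.3% of all probe sets in that comparison of 2 against 6 arrays.

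As log2(signal + 16), the scale of all changes that follow, Akr1b8 averaged 8.37 ± 0.62 (SD, n = 6) in male olfactory and 13.54 ± 0.48 (n = 6) in male respiratory epithelium. It was lower in the olfactory tissue (change of -5.17, standard error 0.27, 95% interval -5.73 to -4.61), which is 35.9-fold, with an adjusted p of 3.22e-11 in limma. This was the smallest p of all 31042 probe sets in that comparison. In females it averaged 9.47 ± 0.34 (n = 2) against 13.57 ± 0.43 (n = 6), a change of -4.10 (SE 0.38, limma adjusted p 7.91e-07) or 17.1-fold. Left out 1 at a time, no array moved the male change beyond -5.34 to -4.96 or the female change beyond -4.34 to -3.86.

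**Figure D1:**
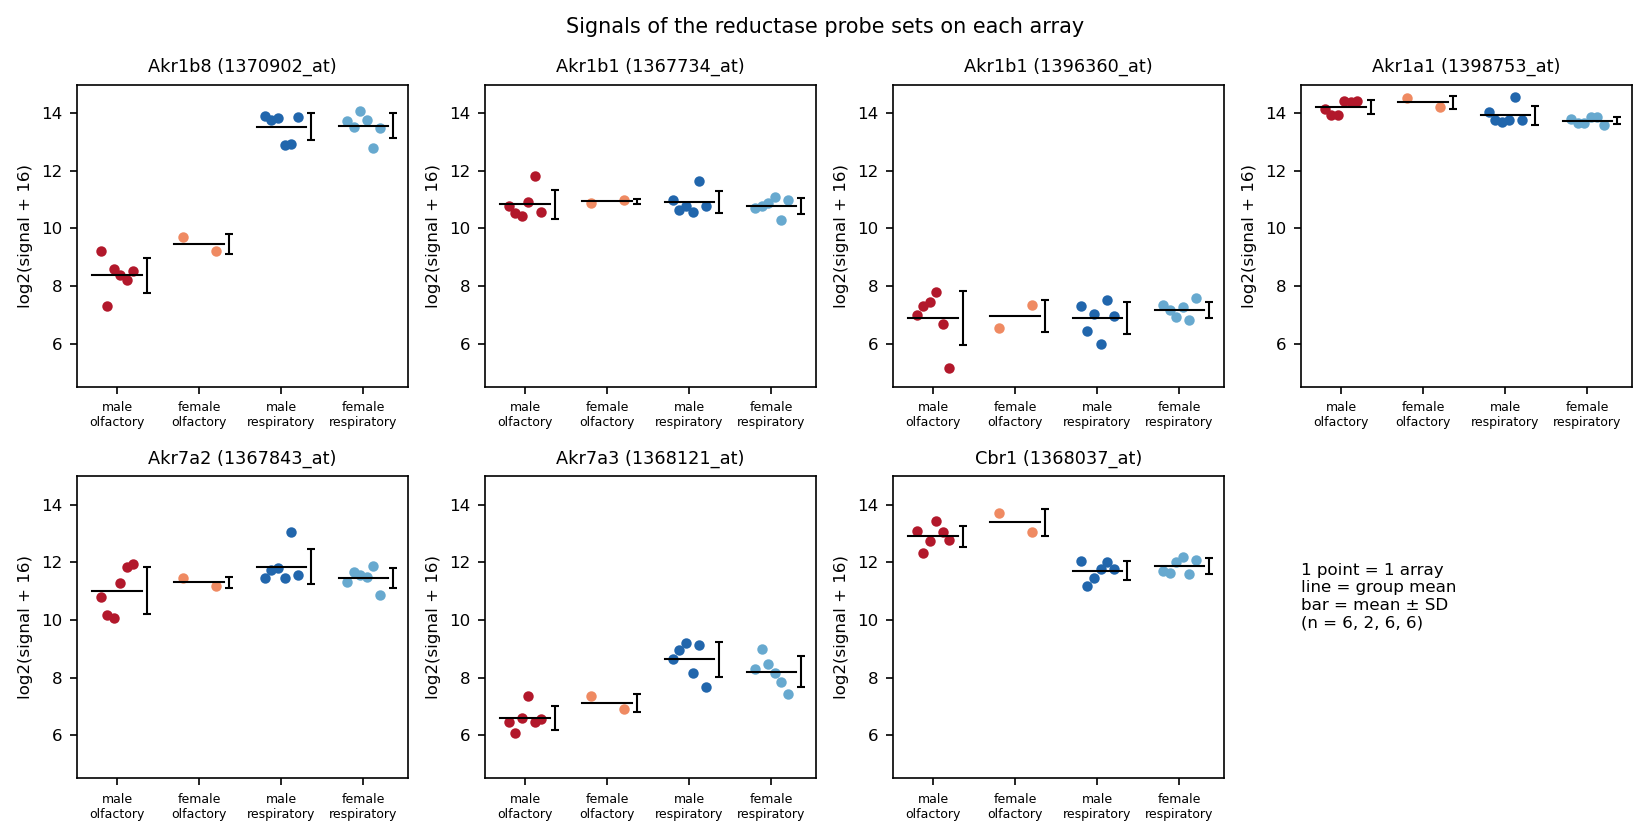
Signals of the 7 probe sets on each array, 1 point per array, as log2(signal + 16) on the vertical axis, with the group mean (line) and mean ± SD (bar) by tissue and sex (6, 2, 6 and 6 arrays from left to right). Akr1b8 reads at most 9.71 on the olfactory and at least 12.80 on the respiratory arrays, Akr7a3 is lower and Cbr1 higher on olfactory arrays, and the groups of Akr1b1 overlap.

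Akr7a3, the aldehyde reductase known in rat liver for acting on the dialdehyde of aflatoxin, was lower in male olfactory epithelium too. Its signal ran from 51.6 to 148 with a median of 75.2 on male olfactory arrays, and from 187 to 575 with a median of 434 on male respiratory arrays. All 20 readings were above the background of their arrays, which was the 95th percentile of 27 control probe sets without a target and lay between 28.2 and 64.9. The male groups did not overlap, though the highest olfactory array (male 4) and the lowest respiratory array (male 8) came close. The change was -2.04 (SE 0.30, limma adjusted p 1.45e-05), or 4.12-fold.

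In females Akr7a3 read 104 and 147 on the olfactory arrays and 156 to 498, with a median of 285, on the respiratory arrays. These did not overlap either, but 30.3% of all probe sets fail to overlap in that comparison of 2 against 6 arrays. The change of -1.07 (SE 0.42, 95% interval -1.94 to -0.20) did not pass, with a limma adjusted p of 0.0795. It passed without female respiratory 9 (-1.23, adjusted p 0.0476) and without the pair of respiratory arrays that stood apart (-1.15, adjusted p 0.047).

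Cbr1, which reduces quinones, prostaglandins and drugs with a ketone group, was the member called higher in olfactory epithelium. Male olfactory signals ran from 5170 to 11007 with a median of 7767, and male respiratory signals from 2317 to 4184 with a median of 3496. The groups did not overlap. The change was 1.20 (SE 0.20, limma adjusted p 7.57e-05), or 2.29-fold.

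In females Cbr1 read 8511 and 13536 on the olfactory arrays against 3051 to 4683, median 3744, on the respiratory arrays. Again there was no overlap, as for 30.3% of all probe sets in that comparison. The change was 1.52 (SE 0.28, limma adjusted p 0.000621), or 2.86-fold. It rests in part on the array with the higher reading: without female olfactory 6 the change was 1.18 and the adjusted p 0.0558.

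Akr7a2, which reduces succinic semialdehyde and lies next to Akr7a3, did not pass in either sex. Its male olfactory signals ran from 1052 to 3968 with a median of 2127, and its male respiratory signals from 2792 to 8444 with a median of 3202. The groups overlapped, since male olfactory 7 and 10 read as high as respiratory arrays, and the highest reading of all was male respiratory 7. The male change was -0.82 (SE 0.31, 95% interval -1.47 to -0.18, limma adjusted p 0.0565).

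The call for Akr7a2 in males depended on the fit and on the arrays used. With the rat as a random replicate block the change was -0.83 (adjusted p 0.0476), and with a fixed block, in the 5 males that gave both tissues, it was -1.06 (SE 0.22, adjusted p 0.00444). Within the rats aged 11 weeks it was -1.31 (adjusted p 0.00134). It also passed with age as a factor (-0.82, adjusted p 0.0235), after quantile normalization (-0.88, adjusted p 0.0204), and without male olfactory 7 (-0.98, 0.0247) or male olfactory 10 (-1.01, 0.0173). The fixed-block and 11-week fits leave out male olfactory 10 as well. Akr7a2 stayed uncalled in males in 26 settings. Among these were the fit without male respiratory 7 and female respiratory 8 together (-0.58, limma adjusted p 0.12) and that on the 17 arrays with an RNA integrity number (-0.67, 0.154). In females the 2 olfactory readings, 2278 and 2769, lay within the respiratory range of 1859 to 3700 (change -0.15, SE 0.44, adjusted p 0.855).

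Akr1a1, aldehyde reductase, which in rodents also serves the synthesis of ascorbate, had high signals in every sample. Its male olfactory signals ran from 15622 to 22225 with a median of 19803, and its male respiratory signals from 13153 to 24180.0 with a median of 14063. The groups overlapped through male respiratory 1 and 7, the latter the highest reading of all 20. The male change was 0.28 (SE 0.18, 95% interval -0.08 to 0.65, limma adjusted p 0.274). In females 19051 and 23922 lay above the respiratory range of 12399 to 15073, with a change of 0.64 (SE 0.25, adjusted p 0.0817). In that comparison 30.3% of all probe sets do not overlap.

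Akr1a1 passed in males after quantile normalization (0.46, adjusted p 0.0153), with both sexes fitted together (0.40, adjusted p 0.0346), and without male respiratory 7 and female respiratory 8 together (0.41, adjusted p 0.0327), the pair that stood apart. It stayed uncalled in males in the other 31 settings. On the 17 arrays with an RNA integrity number the male change was 0.42, and 0.087 (limma adjusted p 0.903) with that number as a covariate. In females Akr1a1 passed without that pair of respiratory arrays (0.66, adjusted p 0.016), after quantile normalization (0.65, adjusted p 0.0241), on the 17 arrays with an RNA integrity number (0.64, adjusted p 0.0456), without female respiratory 8 (0.66, 0.0481) and without male respiratory 7 (0.64, 0.0399), an array of the other sex that enters through the shared spread. It stayed uncalled in females in the other 26 settings. Apart from single arrays left out, the female change ran from 0.29 to 0.68 (limma adjusted p 0.016 to 0.679).

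Akr1b1, aldose reductase, which turns glucose into sorbitol, did not differ beyond its spread. Its brighter probe set read 1374 to 3570, median 1628, on male olfactory arrays and 1513 to 3160, median 1750, on male respiratory arrays. It read 1877 and 2025 on the female olfactory arrays and 1239 to 2146, median 1813, on the female respiratory arrays. All these ranges overlap. The changes were -0.05 in males (SE 0.22, 95% interval -0.50 to 0.40, limma adjusted p 0.897) and 0.15 in females (SE 0.31, adjusted p 0.791), so a male difference of up to 1.42-fold remains within the interval.

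The dimmer Akr1b1 probe set ran from 19.96 to 206 on male olfactory arrays, where male olfactory 10 was below background, and from 48.1 to 165 on male respiratory arrays. On female arrays it read 78.3 and 147 in olfactory and 96.0 to 176 in respiratory tissue. Its changes were 0.02 in males (SE 0.36, adjusted p 0.978) and -0.23 in females (SE 0.51, adjusted p 0.808). Neither probe set of the gene was called in either sex, and the intervals of the dimmer one are wide.

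In males 3 of the 7 probe sets passed, where 25.2% of all probe sets passed (limma, adjusted p under 0.05). Of these, 2 were lower, Akr1b8 and Akr7a3, and 1 was higher, Cbr1, against 13.6% and 11.6% of all probe sets. The male groups of the same 3 probe sets did not overlap, against 13.4% of all probe sets. In females 2 of 7 passed, Akr1b8 and Cbr1, where 17.9% of all probe sets passed. The median change over all probe sets was -0.04 in males and -0.11 in females, and quantile normalization moved the female median to 0.02. Both tissue contrasts share 1 estimate of the spread over all 20 arrays, and p-values measure the spread between these rats.

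**Figure D2:**
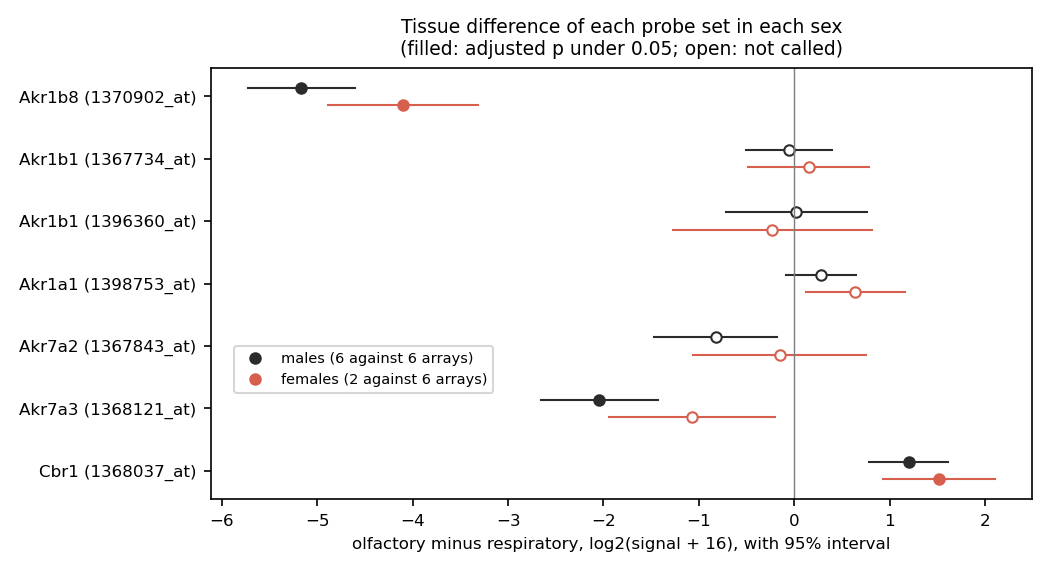
Olfactory minus respiratory difference of each probe set in log2(signal + 16), for males (black, 6 against 6 arrays) and females (red, 2 against 6), with 95% intervals; filled points have an adjusted p under 0.05. Akr1b8 stands at -5.17 and -4.10, Akr7a3 at -2.04 and -1.07 and Cbr1 at 1.20 and 1.52, while the intervals of both Akr1b1 probe sets span 0.

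In the 7 rats that gave both tissues the differences within an animal can be read directly. Akr1b8 was lower in the olfactory sample of 7 of 7 rats, by -6.46 (male 2) to -3.58 (female 8) with a mean of -4.80. Akr7a3 was lower in 7 of 7, from -2.88 (male 2) to -0.79 (male 4), and Akr7a2 in 7 of 7, from -1.74 (male 3) to -0.11 (female 6). Cbr1 was higher in 7 of 7, from 1.02 (male 7) to 1.70 (female 6), with a mean of 1.33 and the narrowest spread of these genes (SD 0.28). Akr1a1 was higher in 6 of 7, from -0.16 (male 7) to 0.89 (female 6). After quantile normalization its difference in male 7 was 0.49, so its direction there depends on the scaling. Akr1b1 was lower in 4 and higher in 3 rats by its brighter probe set. The share of all probe sets that go 1 way in 7 of 7 rats was not computed, so these counts are a description only.

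**Figure D3:**
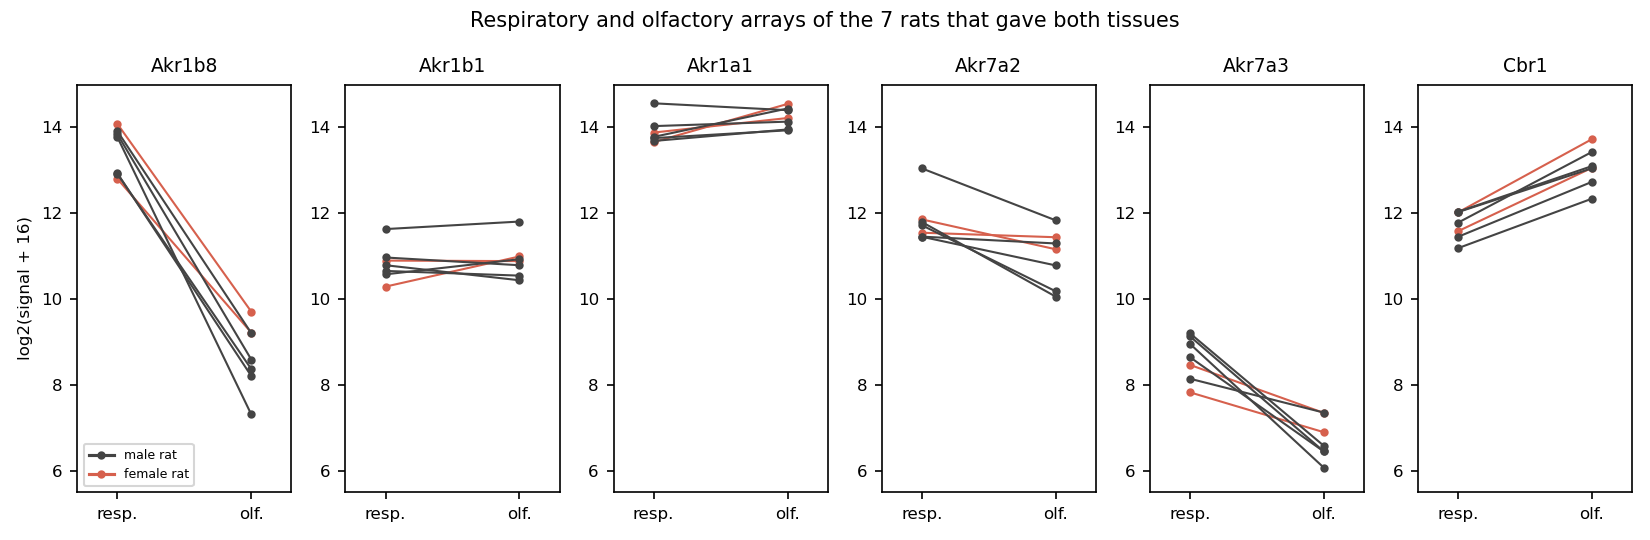
Respiratory and olfactory arrays of the 7 rats that gave both tissues, joined by 1 line per rat (black male, red female), as log2(signal + 16), with 1 panel per gene. Every line falls for Akr1b8, Akr7a3 and Akr7a2, every line rises for Cbr1, and those of Akr1b1 go both ways.

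Between the sexes none (0) of the 7 probe sets passed in respiratory epithelium, where 0.0258% of all probe sets did. Female minus male changes there ran from -0.43 for Akr7a3 to 0.31 for the dimmer Akr1b1 probe set, each with a limma adjusted p of 1 and an unadjusted p of at least 0.162. Akr1b8 differed by 0.03 (95% interval -0.53 to 0.59). In olfactory epithelium none passed either, against 0.0419% of all probe sets, and 1 of the 7, Akr1b8, had an unadjusted p under 0.05, as did 5.10% of all probe sets.

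The widest sex difference was that of Akr1b8 in olfactory epithelium, where both female arrays read above the highest male array. The change was 1.10 (SE 0.38, unadjusted p 0.00864, limma adjusted p 0.824), and 5.85% of all probe sets fail to overlap in that comparison of 2 against 6 arrays. The tissue difference of Akr1b8 was 1.07 smaller in females than in males (interaction 1.07, SE 0.47, unadjusted p 0.0318, adjusted p 0.924). That of Akr7a3 differed by 0.97 (SE 0.51, unadjusted p 0.0709, adjusted p 0.924). In this test of the difference between the sexes 0 of 31042 probe sets (0%) passed, 1516 had an unadjusted p under 0.05 in limma, and no member passed under any alternative. A sex difference in the tissue contrast was therefore not detectable for any of the 6 genes with these arrays.

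The rest of the aldo-keto reductase superfamily was read from lists of related genes, each gene by its probe set of highest mean signal. Over all named genes 31.8% passed in males, 14% higher and 17.8% lower, and the median change was -0.05. Of 13 other aldo-keto reductases measured, 2 rose and 3 fell in male olfactory epithelium, with a median of -0.22. Kcnab2, a potassium channel subunit with the aldo-keto reductase fold, rose by 1.83 (SE 0.22, limma adjusted p 1.19e-06) and Akr1e2 by 0.59. Akr1c15 fell by 2.88 (SE 0.34, adjusted p 1.06e-06), Akr1c3 fell by 1.61 and Akr1c14 fell by 0.60, the last a member of the family of hydroxysteroid dehydrogenases. In females the Akr1c14 change had the opposite sign and was not called (0.42, SE 0.27, limma adjusted p 0.309). Akr1c3 was above background on 1 of 6 male olfactory and 4 of 6 male respiratory arrays, and its change was -2.67 with a pseudocount of 1 and -0.83 with 64, so its size is not settled. The neighbours of Akr1b8 on chromosome 4 did not pass: Akr1b7 was above background on 0 of 6 male olfactory and 2 of 6 male respiratory arrays (change -0.44), and Akr1b10 on 4 and 6 (change -0.19).

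Of 15 other short-chain carbonyl reductases 3 rose and 4 fell, with a median of 0.02. Dcxr, which reduces dicarbonyls and xylulose, rose by 1.79 (SE 0.28, limma adjusted p 3.83e-05), Dhrs7 by 0.69 and Rdh11, a retinal reductase, by 0.54. Dhrs9, above background on 3 of 6 male olfactory arrays, fell by 2.39 (SE 0.38, adjusted p 4.26e-05), Dhrs3 fell by 0.92, and Cbr3, the closest relative of Cbr1 in this list, fell by 1.18 (SE 0.26, adjusted p 0.00129). Cbr1 and Cbr3 thus went in opposite directions in the same arrays. Of 11 genes of the hexose, polyol and glyoxal routes, which handle substrates, products or later compounds of the routes of Akr1b1 and Akr1a1, 3 rose and 0 fell, with a median of 0.21. With the pair of arrays that stood apart left out, or male respiratory 7 alone, 5 passed. These 3 were the fructose carrier Slc2a5 (1.98, SE 0.38, adjusted p 0.000402, above background on 2 of 6 male respiratory arrays), Sord, the dehydrogenase that follows Akr1b1 in the polyol route (1.24, SE 0.24, adjusted p 0.00038), and Glo1, glyoxalase (0.80, SE 0.28, adjusted p 0.0345).

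Of 9 genes that supply NADPH 0 rose and 3 fell, with a median of -0.45: Nnt fell by 1.55, Idh2 fell by 1.10 and Idh1 fell by 0.94. Without female respiratory 8, alone or with male respiratory 7, 5 of the 9 passed. Of 13 known targets of the oxidant response, of which Akr1b8, Akr7a3 and Cbr1 are described as further examples in rodents or humans, 1 rose and 4 fell, with a median of -0.65. The enone reductase Ptgr1 fell by 1.75. Of the subunits of the enzyme that starts glutathione synthesis, Gclc fell by 1.68 and Gclm fell by 1.38, while Ugdh rose by 0.45. With the fixed block for the rat, 9 of these 13 oxidant-response targets passed. Male calls over all probe sets ran from 2347 to 10977 between the alternatives. Of the 7 regulators of that response, Nfe2l2 and Keap1 among them, 0 passed in limma, 2 had an unadjusted p under 0.05 where 42.3% of all named genes did, and the median was 0.05. With the fixed block 1 of them passed, and also 1 without male olfactory 10 or male respiratory 2, 3 or 8. Of 14 alcohol and aldehyde dehydrogenases, which oxidise what the reductases reduce or the same aldehydes, 3 rose and 6 fell, with a median of -0.13. Adh7, above background on 4 of 6 male olfactory arrays, fell by 5.03 (SE 0.53, adjusted p 2.26e-07), Aldh3a1 fell by 3.67 and Aldh7a1 fell by 1.72, whereas Adh1c rose by 2.44, Aldh1a2 by 1.39 and Adh5 by 1.13.

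In females, with 2 olfactory arrays, the counts of these lists were 1 higher and 2 lower among the other aldo-keto reductases, 4 and 2 among the short-chain carbonyl reductases, 2 and 0 in the hexose routes, 0 and 1 for NADPH supply, 0 and 2 among the oxidant-response targets, and 3 and 6 among the dehydrogenases. Of all named genes 22.5% passed in females. Calls there depend on the olfactory pair: of all probe sets 5571 passed, 1977 without female olfactory 6 and 2992 without female olfactory 8.

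Of the male calls, 5 lay near the threshold and were lost when any of several arrays was left out, with changes that stayed in the same direction. Akr1e2 did not pass without male olfactory 1, 3 or 4 or male respiratory 7 or 8 (adjusted p up to 0.0654, changes over all arrays left out in turn 0.47 to 0.75), nor Akr1c14 without male olfactory 10 or male respiratory 3 or 8 (up to 0.0617, -0.68 to -0.48). Rdh11 was lost without male olfactory 1, 4 or 10 or male respiratory 2, 3, 4 or 8 (up to 0.0918, changes 0.45 to 0.62), and Glo1 without male olfactory 4 or 10 or male respiratory 1, 2, 3, 4 or 8 (up to 0.09, changes 0.65 to 0.93). Ugdh was lost without male olfactory 1, 3 or 7 or male respiratory 2, 4 or 8 (up to 0.0833, changes 0.38 to 0.53). With the rat as a fixed replicate block, Akr1c14 (adjusted p 0.0713) and Rdh11 (0.119) did not pass. Nor did Akr1c14 with both sexes fitted together (-0.26, limma adjusted p 0.284).

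**Figure D4:**
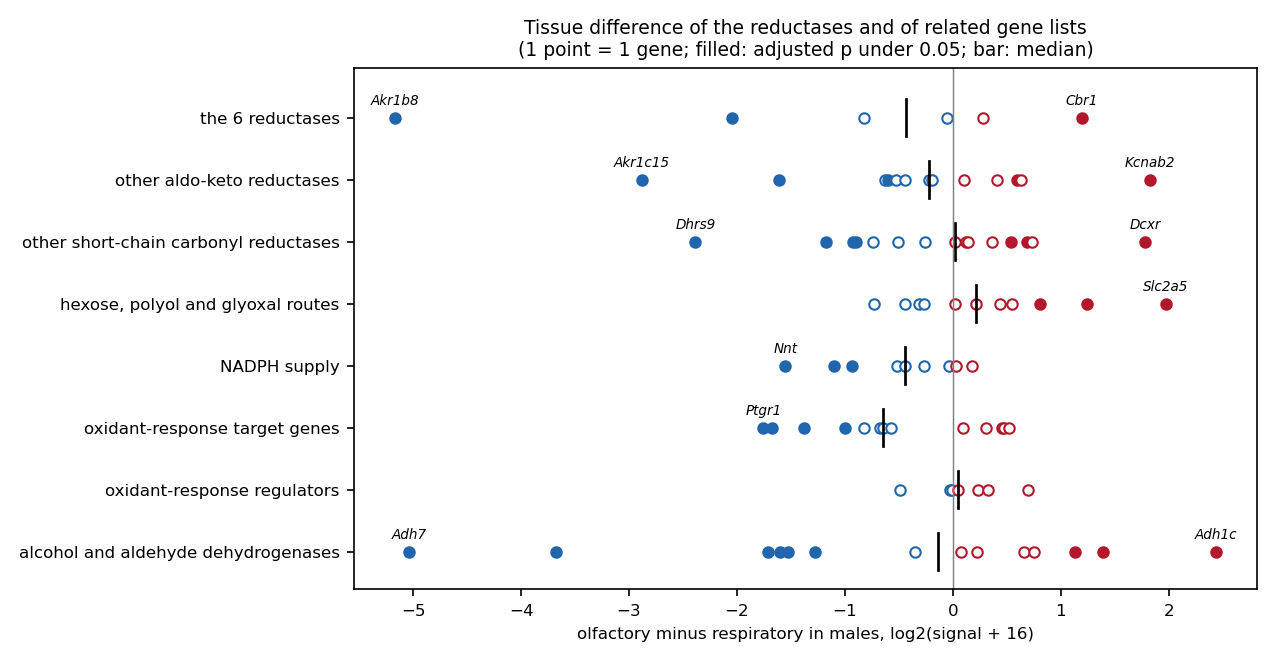
Olfactory minus respiratory difference in males, in log2(signal + 16), of the 6 reductases and of the genes of 7 related lists, 1 point per gene, filled where the adjusted p is under 0.05, with a bar at each median. The reductases run from Akr1b8 at -5.17 to Cbr1 at 1.20, and among the dehydrogenases Adh7 stands at -5.03 and Adh1c at 2.44.

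The genes whose profile over the 20 arrays lay closest to that of a reductase, by the root mean square difference of profiles centred on their own mean, are given as a description. For Akr1b8 they were the airway mucin gene Muc5ac (0.65), the kallikrein gene Klk1b3 (0.66), Enpp3 (0.68), the clotting factor gene F5 (0.72) and Dpt (0.73), where the median named gene lay at 2.49. For Akr7a3 they were St3gal4 (0.41), Eps8l2 (0.41), Foxq1 (0.45), Trpm4 (0.45) and Entpd8 (0.46), against a median of 1.07. For Cbr1 they were Lmo2 (0.26), Dtd1 (0.28), Miga2 (0.28), Clns1a (0.28) and Slc66a3 (0.28), against a median of 0.87. All of them were chosen on the same arrays and show the split between the tissues. No test was made of these likenesses.

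**Figure D5:**
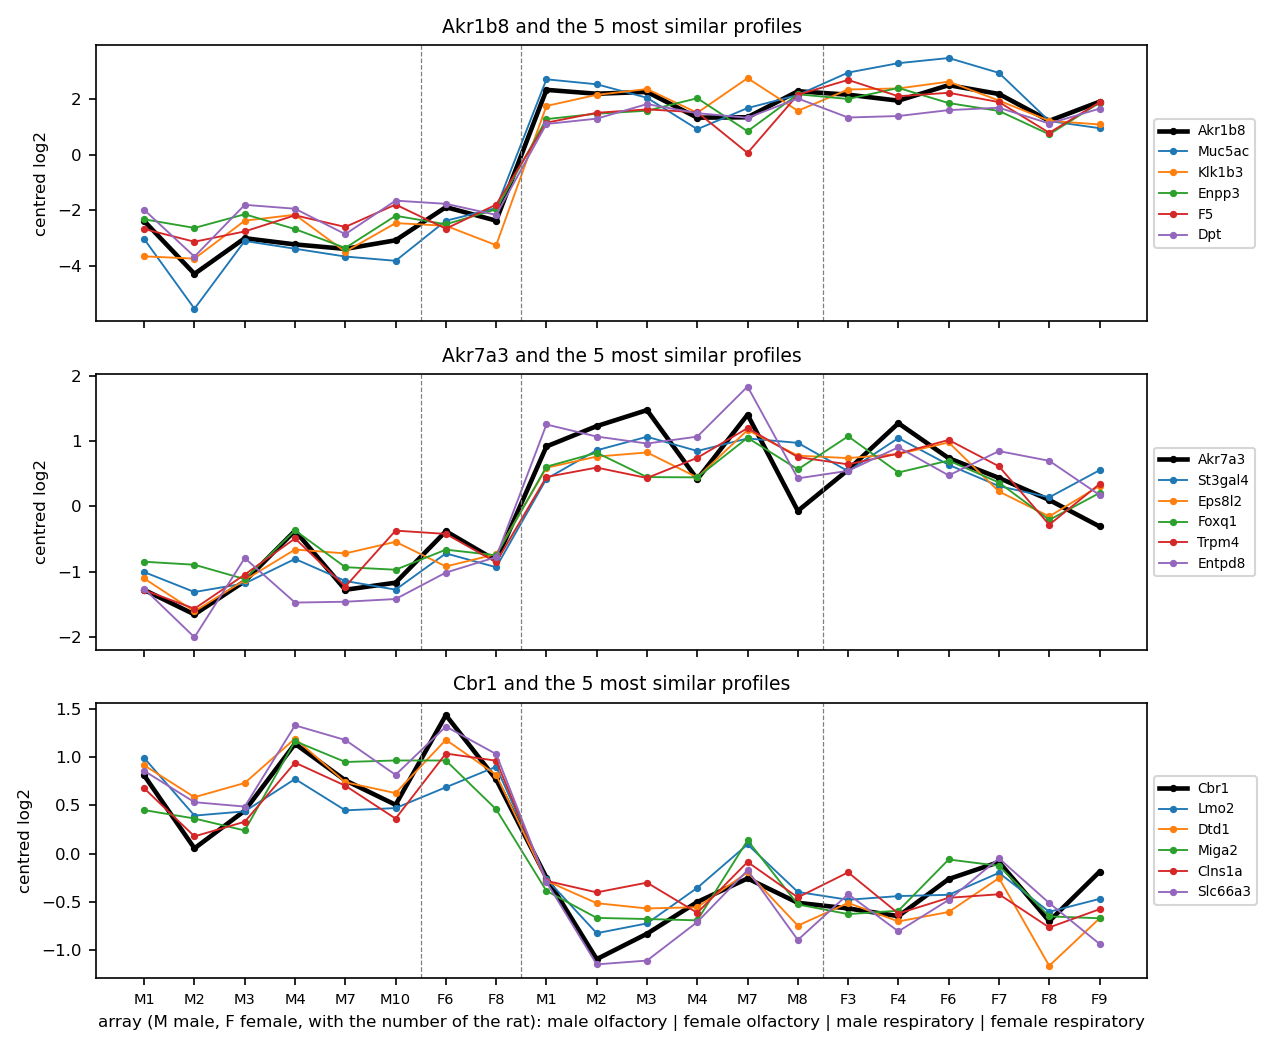
Profiles of Akr1b8, Akr7a3 and Cbr1 (black) and of the 5 closest named genes each (colours) over the 20 arrays, in log2(signal + 16) centred on each gene's own mean, with dashed lines between the groups. Akr1b8, Muc5ac, Klk1b3, F5 and Dpt are lowest on male olfactory 2, and Enpp3 is not. Akr7a3, St3gal4, Eps8l2, Trpm4 and Entpd8 are lowest on that array too, and Foxq1 is not. Each panel shows a step between the tissues.

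The cell content of the samples moved with the tissue as well. Of 7 olfactory neuron markers 6 were higher in male olfactory epithelium, with summed signals of 63048 to 72467 against 2597 to 11982, and of 5 sustentacular markers 4 were higher (86293 to 119480 against 22598 to 59813). Of 5 basal cell markers 4 were lower (3443 to 11107 against 21695 to 67011), of 7 goblet and secretory markers 3 (31852 to 53163 against 43492 to 82654) and of 5 leukocyte markers 5 (2073 to 4711 against 9464 to 16484). Ciliated markers were lower for 2 of 5 (4114 to 6184 against 4710 to 8810), squamous markers for 3 of 4 (437 to 2032 against 2714 to 11106) and erythrocyte markers for 2 of 2 (14804 to 33621 against 26229 to 50771), with none of 3 muscle markers called. On male olfactory arrays 1 squamous and 1 leukocyte marker lay at or below background throughout. In females the sums were 75641 to 76441 against 3910 to 24751 for the neuron markers and 5674 to 8620 against 27458 to 33362 for the basal ones. The part of these cell types in the reductase differences was not tested, and in whole tissue fewer cells of a type and less RNA per cell cannot be told apart.

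The respiratory arrays held varied amounts of RNA from olfactory neurons, with Omp, a protein of mature olfactory neurons, between 9.70 and 13.23 on the log2 scale. Across the 12 respiratory arrays, each of another rat, Cbr1 correlated with Omp by r = 0.70 (permutation p 0.0116, adjusted over the 6 genes 0.0696) and by rho = 0.66 (p 0.0234, adjusted 0.140). Without the 2 arrays farthest from the median of Omp, r was 0.75. It was 0.77 in the 6 males (exact permutation p 0.0778) and 0.55 in the 6 females (exact permutation p 0.25). None of the 6 genes passed: r was 0.24 for Akr1b8, 0.41 for Akr1b1, 0.31 for Akr1a1, -0.09 for Akr7a2 and -0.14 for Akr7a3, with adjusted permutation p between 0.568 and 0.791. Without the 3 respiratory arrays of highest Omp, the same numbers of members passed, 3 in males and 2 in females.

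The RNA integrity number, which is higher for less degraded RNA, also moved with the tissue: it averaged 8.54 ± 0.26 (SD, n = 5) in male olfactory and 9.20 ± 0.08 (n = 4) in male respiratory samples, and 8.30 (n = 2) against 8.98 ± 0.26 (n = 6) in females. Within a sex the tissues did not overlap: 8.2 to 8.8 against 9.1 to 9.3 in males, and 8.3 against 8.7 to 9.3 in females. Tissue and RNA integrity therefore cannot be told apart here, and changes fitted with the covariate are extrapolations. With this number as a covariate, over the 17 arrays that have one, Akr1b8 remained called in both sexes (males -5.39, adjusted p 2.07e-05; females -4.27, adjusted p 0.000775). Akr7a3 in males was -1.68 (SE 0.53, limma adjusted p 0.061), Cbr1 was 0.83 in males (SE 0.32, adjusted p 0.131) and 1.08 in females (SE 0.35, adjusted p 0.1), and Akr7a2 in males was -1.62 (adjusted p 0.0334). Akr1a1 in males was 0.087 (SE 0.27, adjusted p 0.903). On the same 17 arrays without the covariate, the calls of Akr1b8, Akr7a3 and Cbr1 in males stood. Of the 27 related genes named above 17 lost their call with the covariate, and 5 on the same arrays without it. The SE was larger for all 17 with the covariate. For 15 of them the change kept 0.7 or more of its size, a limit chosen after seeing the data (Idh1 -1.09, Ptgr1 -1.63, Dhrs9 -2.08), and was near 0 for Glo1 (0.025) and small for Aldh1a2 (0.23).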

How the data were processed

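RNA from 20 samples was measured on 1 rat expression array each. The authors deposited intensity values, with 1 linear signal for each probe set. GCOS 1.0 is named in the submitters' processing notes, while algorithm and scaling target are not given in the sources used. On every array the mean trimmed at both ends lay at 500.1 to 500.3, so the deposited scaling was kept. Median signals ran from 133.5 to 192.5. Precision is limited by the number of arrays.

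Of 31099 probe sets 57 controls were left out. The platform annotation gave 1 symbol for 20826 probe sets, several for 436 and none for 9780. A gene stands for its probe set of highest mean signal, and both Akr1b1 probe sets are shown. limma 3.58.1 in R 4.3.3 fitted log2(signal + 16) with a mean for each of 4 groups over 20 arrays and a variance trend, two-sided, with Benjamini-Hochberg adjustment over 31042 probe sets and calls under 0.05. Intervals are 95% and cover the fit's error. Fold changes understate those of dim probe sets, because of the added 16. Permutation tests used 100000 resamples or, within a sex, all pairings.

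Arrays with 1 sex and 1 number in their labels were read as 1 rat. Deviations from the group means correlated by -0.184 to 0.246 within rats, over 0.1 in 4 of 7, and the consensus correlation was 0.039, so the labels alone carry the pairing. The model carries no animal term, and block fits are alternatives. Others were the pseudocount, quantile normalization, a filter on dim probe sets, no trend, age, RNA integrity, and arrays left out. Leaving out the 3 respiratory arrays of highest Omp was added after seeing the data.

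The members and the gene lists were chosen with earlier results of these data known. Named are every member probe set, of each list up to 3 genes per direction with the widest called change in males, and the 5 genes closest in profile to each called member. Akr1b7 and Akr1b10 were named as neighbours of Akr1b8, and Nfe2l2, Keap1 and Omp as examples, after their values were seen. The fit was tested on simulated data.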

Additional observations from a re-analysis of the deposited data

Results flagged for a closer look

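In 21 sets of 6 arrays, 1 per probe set and group, the highest or lowest array was checked for a gap to its neighbour too wide for the group's range (Dixon's limit of 0.625 for 6 samples). Chance alone flags about 1 in 20 such groups, and 3 stood out. All were the highest array of their group and came from male 7. The brighter Akr1b1 probe set read 11.808 on the log2 scale on male olfactory 7, where the next array read 10.931, and 11.633 on male respiratory 7, where the next read 10.971. Akr7a2 read 13.047 on male respiratory 7, where the next read 11.799. Male respiratory 7 is 1 of the arrays that stood apart over all probe sets. Without it the Akr1b1 change in males was 0.092 (SE 0.20, limma adjusted p 0.79) and the Akr7a2 change was -0.58 (adjusted p 0.139).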

How the results depend on the processing

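Over the alternatives tried, Akr1b8 stayed called with its direction in both sexes, at -5.47 to -4.81 in males and -4.27 to -4.01 in females apart from single arrays left out. In males 3 members passed, 5 after quantile normalization, 2 with the RNA integrity covariate (Akr1b8 and Akr7a2), and 3 to 4 when 1 array was left out. Without male respiratory 7 and female respiratory 8 together 4 passed, the addition being Akr1a1. With age as a factor 4 passed, the addition being Akr7a2. Akr1a1 also passed with both sexes fitted together. With the rat as a random replicate block 4 passed, as also with the fixed block, the addition being Akr7a2, and the blocks changed no other member's call. In females 2 passed, 4 without male respiratory 7 and female respiratory 8 together, 1 with the RNA integrity covariate, and 1 to 3 when 1 array was left out, the 1 without female olfactory 6. The cause of these shifts was not tested.

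Over all probe sets, the covariate left 2347 of 7824 calls in males and 1133 of 5571 in females, where 1977 remained without female olfactory 6, 2992 without female olfactory 8 and 8484 without the pair of arrays named above. Female against male calls in olfactory tissue were 13 and ranged from 8 to 29, and the test of the tissue difference between the sexes gave 0 and up to 4. In the lists, calls in males were 5 for other aldo-keto reductases (3 without male respiratory 8), 7 for short-chain carbonyl reductases (2 with the covariate), 3 for hexose routes (1 to 5), 3 for NADPH supply (2 to 6), 5 for oxidant targets (0 with the covariate, 9 with the fixed block, 10 with both sexes together), 0 for their regulators (up to 1) and 9 for dehydrogenases (4 with the covariate).

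Values that changed sign were all uncalled. For the brighter Akr1b1 probe set the male change was 0.092 without the pair of arrays, 0.13 on the 17 arrays with an integrity number, 0.014 with both sexes together and -0.25 to 0.092 with 1 array left out. Its female change was -0.33 with the covariate and -0.039 as the mean of both probe sets. Its sex difference in respiratory tissue was 0.13 without the pair, 0.089 on the 17 arrays, 0.097 as the mean and -0.18 to 0.035 with 1 array left out, and in olfactory tissue -0.060 with the covariate and -0.038 with age as a factor. Its interaction was -0.041 without the pair and -0.022 as the mean. For the dimmer Akr1b1 probe set the male change was -0.027 with a pseudocount of 1, -0.063 with both sexes and -0.16 to 0.37 with 1 array left out. The female change was 0.047 after quantile normalization, 0.39 with the covariate and -0.62 to 0.16 with 1 left out. The olfactory sex difference was -0.0030 with a pseudocount of 64 and -0.34 to 0.45 with 1 left out, and the interaction -0.64 to 0.14.

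The respiratory sex difference of Akr1b8 was -0.085 with the covariate, -0.031 on the 17 arrays and -0.097 to 0.18 with 1 left out. The olfactory sex difference of Akr7a2 was -0.0075 with the covariate and -0.044 with age. The interaction of Cbr1 was -0.014 to 0.65 with 1 left out. The correlation with Omp was -0.0028 for Akr1b8, 0.25 for Akr7a2 and 0.077 for Akr7a3 in males, and 0.090 for Akr7a2 without the 2 farthest arrays. Of 2072 recomputed changes and correlations, 1944 kept their direction and side of the threshold. That count is no measure of how firm the results are. Leaving out an array of 1 sex cannot move the tissue change of the other, and many uncalled values lay far from the threshold.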
